A study of Mus musculus with 77 samples.

Results

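The RNA bound to Isl1-driven tagged ribosomes (IP) of uninjured mouse dorsal root ganglia (DRG) was compared, gene by gene, with the RNA of the whole lysate from which it was pulled down (input). The genes compared were the 14544 listed in both the naive IP table and the naive input table, out of 18056 genes listed in any of the tables used, and 10275 of them had a mean FPKM (fragments per kilobase of transcript, scaled to library size) above 1 and were tested. The IP and the input each had 3 libraries from male adult ICR mice with the genotype Ribotag(Homo) X Isl1 cre(Het), so that both fractions carry the Cre driver and 2 copies of the tagged allele. Against these were set the supernatant of the same line, meaning the lysate left after the pull-down (3 libraries), the IP and input of C57BL/6 mice with Ribotag(Homo) X PGK cre(Het), labelled as all tissue cells (3 and 3), and those of C57BL/6 mice with Ribotag(Het) X Adv cre(Het), labelled as sensory neurons (3 and 3). A further set of naive Isl1 IP and input libraries of the same strain and genotype (3 and 3) accompanied the injury time course of the study and came from lumbar ganglia L4 to L6. Strain and driver differ together between the Isl1 and PGK lines and cannot be told apart there. No label ties a replicate to an animal of its own, and p-values therefore cover the spread among libraries, which may be technical.

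In RiboTag mice, Cre recombinase switches the ribosomal protein gene Rpl22 to a form carrying an HA tag, and an antibody to HA then pulls down the ribosomes of the cells that express Cre together with the RNAs bound to them. Isl1 is a LIM-homeodomain transcription factor made by sensory neurons of the ganglion from early development on. Each sensory neuron soma is wrapped by satellite glia, its myelinated axon by Schwann cells, and the ganglion also holds fibroblasts, blood vessels and resident macrophages. The input carries the RNA of all these cells, whether or not it is on ribosomes, and the IP should carry ribosome-bound RNA of the tagged cells. Cell type and ribosome binding both differ between the fractions and cannot be told apart in this comparison alone.

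Total counts lay between 40987875 and 54088821 in the Isl1 IP, between 40962331 and 53380482 in the supernatant and between 34031235 and 48026978 in the input. For genes with many counts, spread between libraries and not counting error limited the precision. Some genes described had very low IP levels that rest on few reads, and counting error also limits their changes. Levels are given as CPM (counts scaled to library size, with TMM factors), which are shares of a library and not amounts of RNA. Replicate 1 stood apart. The chi-square statistic per gene was 201 between IP replicates 1 and 2 and 135 between 1 and 3, but 28.9 between 2 and 3. For the input these values were 48, 65.4 and 22.1. The main counts are therefore also given without the IP and input libraries of replicate 1.

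The tagged gene itself, Rpl22 (chromosome 4, 152325742 to 152334071 in mm10), had 152, 88.8 and 104 CPM in the IP libraries, against 164, 146 and 139 CPM in the input libraries. The IP libraries overlapped the input libraries, and the log2 change was -0.38 ± 0.24, adjusted p = 0.26 in edgeR's quasi-likelihood test, the test behind every adjusted p that follows. Isl1 (chromosome 13, 116298281 to 116309689) had 156, 124 and 142 CPM in the IP, against 135, 120.4 and 121 CPM in the input, a log2 change of 0.16 ± 0.10, adjusted p = 0.275. Neither gene passed the test between the fractions, and the deposited counts do not distinguish the tagged from the untagged Rpl22 transcript. Dhh, which marks Schwann cells and drives Cre in another line of the study, had 7.78, 11.9 and 13.7 CPM in the IP and 33.7, 33.7 and 42.4 CPM in the input, with a log2 change of -1.71 ± 0.37, adjusted p = 0.00118.

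The differences were lopsided. At a false discovery rate under 0.1, 3301 of the 10275 genes tested (32.1%) differed between the IP and the input, of which 1312 (12.8%) were higher in the IP and 1989 (19.4%) were lower. The genes lower in the IP had a median log2 change of -1.31 with an interquartile range of -3.08 to -0.65, and 1185 (11.5%) were lower by more than 2-fold. The genes higher in the IP had a median of 0.40 with an interquartile range of 0.32 to 0.49, and 14 (0.136%) were higher by more than 2-fold. Over all genes tested the median was 0.04. Every IP library was above every input library in 1939 genes (18.9%) and below in 2356 (22.9%). By mean level, 146 genes had less than 5% of their input CPM in the IP and 289 had 5 to 10%, 7892 had 75 to 150%, and 47 had more than 200%. Replicate numbers were taken to pair the IP with its input, and with the replicate number as a block 4622 genes were called, 2134 higher and 2488 lower. Without replicate 1 of both fractions 2740 genes were called, 949 higher and 1791 lower.

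**Figure D1:**
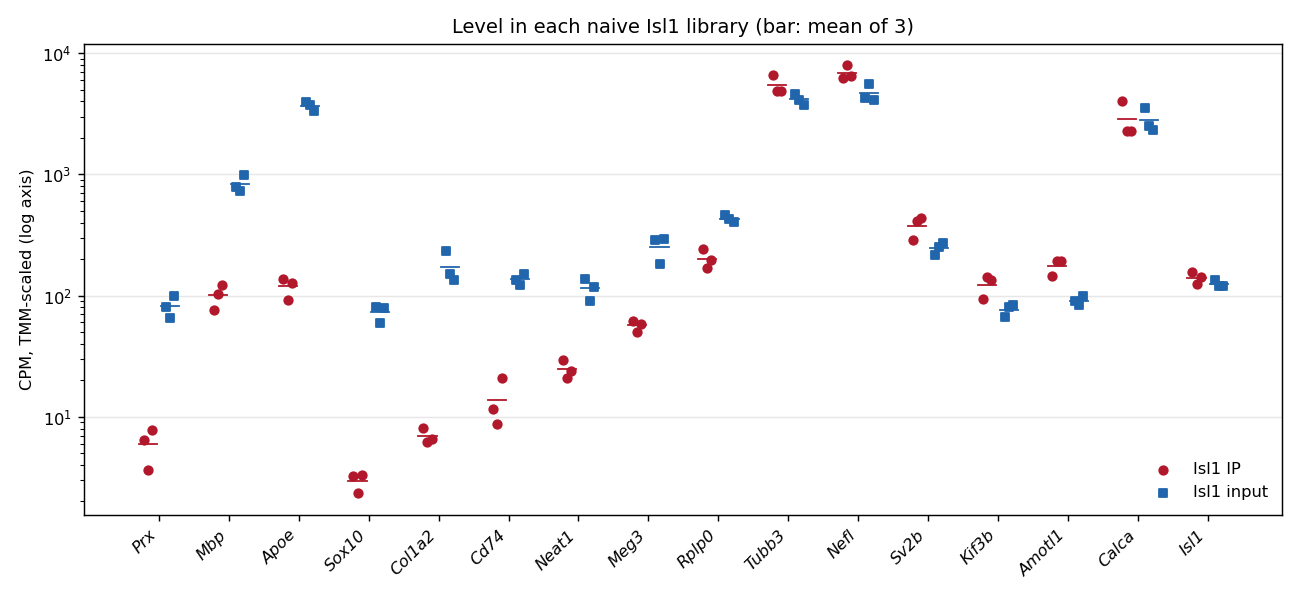
Level of 16 genes in each naive Isl1 library, as TMM-scaled CPM on a log axis, with the 3 IP libraries at the left and the 3 input libraries at the right of each panel and a bar at the mean of 3. The glial, fibroblast and macrophage genes Prx, Mbp, Apoe, Sox10, Col1a2 and Cd74 lie far lower in every IP library than in any input library, while Tubb3, Nefl, Sv2b, Kif3b and Amotl1 lie a little higher and the libraries of Calca and Isl1 overlap.

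Genes of myelinating Schwann cells were far lower in the IP. Over all genes tested 19.4% were lower. All 19 genes of this list were tested, and all 19 were lower in the IP, with a median log2 change of -4.27 against the 0.04 over all genes. Prx, periaxin, a scaffold protein of the myelinating Schwann cell (chromosome 7, 27499324 to 27520214), had 6.42, 3.61 and 7.75 CPM in the IP libraries, against 80.7, 64.8 and 98.3 CPM in the input libraries. Every IP library was below every input library, and the IP mean was 7.30% of the input mean (log2 change -3.78 ± 0.45, adjusted p = 5.74e-07). Egr2, the transcription factor that drives myelination, had 0.478, 0.155 and 0.256 CPM in the IP and 11.6, 13.0 and 8.94 CPM in the input, again without overlap. The fall was not equal across the list. Mbp, myelin basic protein, kept 12.0% of its input level (76.4, 103 and 122 CPM in the IP and 789.9, 728 and 993 CPM in the input, log2 change -3.06 ± 0.27, adjusted p = 1.63e-08). Pmp22, another myelin protein gene whose dosage matters in hereditary neuropathy, had 786, 860.4 and 870.4 CPM in the IP and 1749.8, 1438 and 1485 CPM in the input, and Cnp had 77.0, 80.9 and 80.5 CPM in the IP and 166, 162 and 162 CPM in the input. Their log2 changes were -0.89 ± 0.12 and -1.04 ± 0.10, the smallest of the list. Summed over the list, levels were 1058 to 1197 CPM in the IP and 4709 to 6019 CPM in the input, and Pmp22 made up the greater part of the IP sum. In these bulk fractions, RNA from fewer cells of a type and less RNA per cell cannot be told apart.

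Genes of satellite glia and non-myelinating Schwann cells were lower in the IP as well, with a pair of exceptions. Their count stands beside the 19.4% of all genes tested that were lower. Of 18 genes tested, out of 19 listed, 16 were lower in the IP and 0 were higher, with a median log2 change of -4.00. Apoe, the lipid carrier that glia secrete (chromosome 7, 19696109 to 19699188), had 138, 92.7 and 128 CPM in the IP, against 3919, 3768 and 3358 CPM in the input. The IP mean was 3.25% of the input mean, with no overlap. Sox10, the transcription factor shared by the glia of peripheral nerves, had 3.27, 2.33 and 3.29 CPM in the IP and 80.8, 59.5 and 78.3 CPM in the input (log2 change -4.62 ± 0.39, adjusted p = 6.98e-09). Fabp7, a fatty acid-binding protein of satellite glia, had 32.3, 16.5 and 27.1 CPM in the IP and 638, 477 and 503 CPM in the input (log2 change -4.41 ± 0.47, adjusted p = 1.28e-07). The potassium channel gene Kcnj10, typical of satellite glia, had 2.89, 3.36 and 4.31 CPM in the IP and 65.5, 60.8 and 75.2 CPM in the input (log2 change -4.25 ± 0.42, adjusted p = 5.29e-08). Glul, glutamine synthetase, changed least of those called, with 370.1, 336 and 332 CPM in the IP and 508, 542 and 499.5 CPM in the input (log2 change -0.58 ± 0.17, adjusted p = 0.0151). The 2 tested members that did not pass were Ngfr, the p75 neurotrophin receptor, at 819.8, 1046 and 999 CPM in the IP and 851, 783 and 894 CPM in the input, and L1cam, a cell adhesion molecule, at 263, 398 and 314 CPM in the IP and 461, 407 and 393 CPM in the input. Both are also known from sensory neurons, and their log2 changes were 0.18 ± 0.33, adjusted p = 0.747 and -0.37 ± 0.19, adjusted p = 0.168. The list sum was 1924 to 2243 CPM in the IP and 6712 to 7536 CPM in the input.

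Connective tissue and vessel genes were also lower in the IP, as were 19.4% of all genes tested. All 12 fibroblast genes tested, out of 13 listed, were lower, with a median log2 change of -4.34, and their sum was 61.2 to 68.2 CPM in the IP and 1281 to 1374 CPM in the input. Col1a2, a chain of fibrillar collagen, had 8.15, 6.18 and 6.55 CPM in the IP and 231, 151 and 136 CPM in the input (log2 change -4.64 ± 0.47, adjusted p = 6.28e-08). Mgp, matrix Gla protein, had 2.65, 1.53 and 3.03 CPM in the IP and 91.7, 69.0 and 109 CPM in the input (log2 change -5.23 ± 0.79, adjusted p = 1.58e-05). No IP library reached the lowest input library in either gene. Of 9 endothelial genes tested, out of 13 listed, 8 were lower, with a median of -4.01. Among these was Cldn5, the tight-junction claudin of vessels, at 2.12, 0.816 and 2.03 CPM in the IP and 32.0, 23.9 and 28.6 CPM in the input. Of 5 genes of mural cells tested, out of 11 listed, 4 were lower, with a median of -3.76. One was Acta2, smooth muscle actin, at 0.478, 0.33 and 1.08 CPM in the IP and 18.1, 21.4 and 17.6 CPM in the input. The mural gene that did not pass was Rgs5, at 14.4, 65.7 and 20.5 CPM in the IP and 11.8, 18.4 and 12.3 CPM in the input, where IP replicate 2 was high and the other two near the input. Of 27 collagen, laminin and integrin genes tested, out of 39 listed, 24 were lower, with a median of -2.94. The exceptions were 3 integrin alpha chains, receptors that bind this matrix. Itga3 had 89.2, 94.8 and 76.8 CPM in the IP and 108, 84.5 and 80.4 CPM in the input. The other two were Itga6, at 2.15, 8.16 and 7.42 CPM in the IP and 4.57, 6.04 and 8.04 CPM in the input, and Itga7, at 100.1, 93.6 and 83.9 CPM in the IP and 130.2, 98.5 and 104 CPM in the input.

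Immune cell genes were lower in the IP, as were 19.4% of all genes tested. The input levels of the immune genes were lower than those of the fibroblast list. Of 15 macrophage genes tested, out of 17 listed, 14 were lower in the IP, with a median log2 change of -3.32, and the list sum was 33.1 to 74.1 CPM in the IP and 438 to 609 CPM in the input. Cd74, the invariant chain of class II antigen presentation, had 11.5, 8.66 and 20.8 CPM in the IP, against 134, 123 and 151 CPM in the input (log2 change -3.32 ± 0.56, adjusted p = 6.44e-05). C1qa, a subunit of the first complement component, had 6.11, 1.79 and 4.74 CPM in the IP and 63.2, 31.1 and 31.3 CPM in the input (log2 change -3.32 ± 0.75, adjusted p = 0.0015). Replicate 2 was the lowest IP library for both genes. Aif1 was the macrophage gene that did not pass, at 11.3, 0.99 and 1.18 CPM in the IP and 12.0, 3.17 and 3.60 CPM in the input. All 10 neutrophil and mast cell genes tested, out of 12 listed, were lower, with a median of -3.70. For example, the granulocyte gene S100a8 had 1.01, 1.36 and 1.93 CPM in the IP and 14.3, 23.7 and 17.8 CPM in the input, and the mast cell protease gene Mcpt4 had 0.584, 0.252 and 0.472 CPM in the IP and 7.86, 6.04 and 7.61 CPM in the input. Most lymphocyte and erythrocyte genes were below the FPKM minimum or in 1 table only, and the 2 and 1 tested were lower in the IP. In the glial, vascular, fibroblast, macrophage and granulocyte lists, the counts were the same with the replicate block and without replicate 1, except for a mural gene that was called higher under the block.

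Genes of sensory neurons were a little higher in the IP. All 23 genes of the general list were tested, 22 had a positive log2 change and the median was 0.27, but only 5 passed the test and 0 were lower. The 5 of 23 stand against 12.8% of all genes tested, so the list is described here by its small, shared positive sign. The list sum was 41478 to 45199 CPM in the IP and 31621 to 35885 CPM in the input, so that the ranges did not overlap. Nefl, the light neurofilament subunit (chromosome 14, 68083863 to 68089095), had 6229, 7926 and 6515 CPM in the IP libraries, against 4244, 5599 and 4112 CPM in the input libraries (log2 change 0.57 ± 0.24, adjusted p = 0.0823). Every IP library exceeded every input library. Nefm, the medium subunit, had 4069, 4791 and 4532 CPM in the IP and 2657, 3719 and 2789.9 CPM in the input (log2 change 0.55 ± 0.21, adjusted p = 0.0612). Pou4f1, the homeodomain transcription factor Brn3a, had 412, 416 and 402 CPM in the IP and 288, 323 and 277 CPM in the input (log2 change 0.47 ± 0.20, adjusted p = 0.0822). Stmn2, a regulator of axonal microtubules, and Ret, the receptor tyrosine kinase for GDNF family ligands, also passed, with log2 changes of 0.27 ± 0.12, adjusted p = 0.0981 and 0.43 ± 0.16, adjusted p = 0.0569. Tubb3, neuronal beta tubulin, had 6592, 4872 and 4893 CPM in the IP and 4629.6, 4142 and 3716 CPM in the input, without overlap but with an adjusted p of 0.142. The block gave 8 called genes of this list, and without replicate 1 there was 1, Ret.

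Lists for the classes of sensory neuron had similarly small medians. Their counts have to be read against the 12.8% of all genes tested that were higher and the 19.4% that were lower. The share higher in the proprioceptor list was near that over all genes. Of 13 peptidergic nociceptor genes tested 0 passed in either direction, and their median log2 change was 0.15. Calca, the gene of the pain-related peptide CGRP, had 4067, 2273 and 2269 CPM in the IP and 3559.8, 2505 and 2311 CPM in the input, with overlap (log2 change 0.04 ± 0.28, adjusted p = 0.944). Of 13 non-peptidergic nociceptor genes tested, out of 15 listed, 4 were higher, with a median of 0.29. Among these were Plxnc1, a semaphorin receptor, Cd55, a complement inhibitor, and Runx1, the transcription factor of this lineage. Plxnc1 had 311, 505 and 389 CPM in the IP and 264, 269 and 265 CPM in the input (log2 change 0.59 ± 0.17, adjusted p = 0.0104). Of 11 proprioceptor genes tested, out of 12 listed, 2 were higher, namely the transcription factors Etv1 (0.57 ± 0.22, adjusted p = 0.0658) and Esrrb (0.41 ± 0.17, adjusted p = 0.0821). Pvalb, parvalbumin, had 359, 177 and 235 CPM in the IP and 313, 287 and 275 CPM in the input (log2 change -0.18 ± 0.39, adjusted p = 0.795). With the block 2 peptidergic, 6 non-peptidergic and 3 proprioceptor genes were higher and 1 proprioceptor gene was lower. Without replicate 1 these lists had 0, 4 and 2 genes higher and 0, 0 and 1 lower.

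Among genes of low-threshold mechanoreceptors, which sense light touch, 2 of the 11 tested (12 listed) were lower in the IP and 1, Ret, was higher. These shares are near the 19.4% lower and 12.8% higher over all genes tested. Ntrk2, the TrkB receptor for brain-derived neurotrophic factor (chromosome 13, 58806569 to 59133970), had 16.0, 35.6 and 29.7 CPM in the IP libraries, against 112, 103 and 122 CPM in the input libraries. All IP libraries were well below the input, replicate 1 most so, and the log2 change was -2.05 ± 0.24, adjusted p = 4.05e-07. The transcription factor gene Maf, known from mechanoreceptors and also from macrophages, had 28.5, 27.8 and 28.1 CPM in the IP and 63.3, 51.0 and 51.6 CPM in the input (log2 change -0.97 ± 0.14, adjusted p = 5.51e-06). Both were lower without replicate 1 as well, by log2 changes of -1.78 for Ntrk2 and -0.87 for Maf. Other mechanoreceptor genes did not pass, for example Th, tyrosine hydroxylase, at 142, 241 and 211 CPM in the IP and 122, 201 and 156 CPM in the input. Counts per gene do not separate transcript forms, and whether glia, macrophages or other cells supply Ntrk2 and Maf RNA to the input was not tested. In the related list of neurotrophin and GDNF receptors, 11 of 12 genes were tested, 1 was higher and 3 were lower. Besides Ntrk2 the lower ones were Sort1, sortilin, at 21.4, 35.2 and 33.2 CPM in the IP and 43.4, 48.4 and 47.9 CPM in the input (log2 change -0.64 ± 0.17, adjusted p = 0.00721), and Sorcs1, of the same receptor family, at 6.08, 11.6 and 9.60 CPM in the IP and 17.8, 17.9 and 20.3 CPM in the input (log2 change -1.03 ± 0.21, adjusted p = 0.000462).

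Genes for transport and release were among those higher in the IP, as were 12.8% of all genes tested. Of 24 kinesin and dynein motor genes tested, out of 26 listed, 8 were higher and 0 lower, with a median log2 change of 0.30. Kif3b, a subunit of the kinesin-2 motor (chromosome 2, 153291413 to 153333390), had 93.2, 141 and 134 CPM in the IP, against 65.9, 80.9 and 83.3 CPM in the input (log2 change 0.68 ± 0.14, adjusted p = 0.000481). Dctn1, the large subunit of dynactin, which couples dynein to its cargo, had 389, 638 and 547 CPM in the IP and 298, 391 and 349 CPM in the input (log2 change 0.60 ± 0.23, adjusted p = 0.0595). Dync1h1, the dynein heavy chain, did not pass, at 385, 399.5 and 330.2 CPM in the IP and 456, 399 and 399.7 CPM in the input (log2 change -0.17 ± 0.26, adjusted p = 0.693). Of 31 genes of synaptic vesicles and release tested, out of 33 listed, 9 were higher and 0 lower, with a median of 0.24. Sv2b, a synaptic vesicle glycoprotein, had 285, 413 and 435 CPM in the IP and 218, 249.7 and 271 CPM in the input (log2 change 0.62 ± 0.13, adjusted p = 0.000769). Syt11, a synaptotagmin, and Rims2, a scaffold of the release site, followed with 0.40 ± 0.10, adjusted p = 0.00264 and 0.52 ± 0.12, adjusted p = 0.00171. Of 23 genes of the axon cytoskeleton tested, out of 33 listed, 6 were higher, with a median of 0.31, but without replicate 1 there was 0. Whether replicate 1 itself or the smaller groups lowered this count was not tested. In the same fit 7 motor and 8 synaptic genes were higher and 1 motor gene was lower. With the block the counts higher were 14, 13 and 9 in the 3 lists, with 1 motor gene and 1 synaptic gene lower.

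The largest rises were modest in size. By the naming rule they included Golga3, Sv2c, Zfp382, Amotl1, Kif3c, Rims3, Otud7a, Dgkg, Ubash3b, Kbtbd11, Hmbox1, Ddx42, Chtf18 and Mrs2, with log2 changes from 0.77 for Mrs2 to 1.28 for Golga3. Amotl1, angiomotin-like 1, a regulator of cell junctions and actin (chromosome 9, 14541966 to 14645056), had 145, 194 and 191 CPM in the IP, against 90.1, 83.2 and 98.8 CPM in the input. The lowest IP library was well above the highest input library (log2 change 0.96 ± 0.12, adjusted p = 1.81e-06). In the all-cell PGK line Amotl1 was also higher in the IP, at 180, 174 and 165 CPM, against 99.8, 104 and 89.3 CPM in the input. The change of Amotl1 did not differ between the lines by the interaction test (0.14 ± 0.17, adjusted p = 0.775). Ddx42, an RNA helicase, was the tightest, with 108, 108 and 111 CPM in the IP and 60.9, 66.4 and 58.2 CPM in the input (log2 change 0.82 ± 0.11, adjusted p = 2.4e-06). Golga3, a golgin, had 46.1, 94.5 and 71.1 CPM in the IP and 23.1, 35.3 and 28.8 CPM in the input (log2 change 1.28 ± 0.44, adjusted p = 0.0349). IP replicate 1 was well below the other 2 IP libraries here. Kif3c, another kinesin-2 subunit, had 178, 331 and 287 CPM in the IP and 126, 142 and 155 CPM in the input (log2 change 0.91 ± 0.29, adjusted p = 0.0239). Golga3, Kif3c, Sv2c, Ubash3b and Zfp382 no longer passed in at least 1 of the fits that left out a library.

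The largest falls belonged to cell types described above and a few others. They included Ptgds, Lypd2, Zic2, Rarres2, Gpnmb, Mfap5, Egr2, Ecscr, Sostdc1, Clec2d, Apoc1, Mgp, Pmp2 and Cxcr4, with log2 changes from -6.05 for Ptgds to -5.19 for Cxcr4. Several had very low IP levels, such as Apoc1 at 0.186, 0.0194 and 0.0984 CPM and Zic2 at 0.0531, 0.136 and 0.157 CPM. The size and order of such falls rest on few reads. Mfap5, a microfibril protein of connective tissue, had 1.38, 0.816 and 0.826 CPM in the IP, against 39.9, 36.9 and 41.3 CPM in the input (log2 change -5.31 ± 0.43, adjusted p = 5.57e-09). Rarres2, the gene of the adipokine chemerin, had 0.876, 0.505 and 0.511 CPM in the IP and 24.7, 29.0 and 24.4 CPM in the input (log2 change -5.39 ± 0.61, adjusted p = 2.93e-07). Sostdc1, a secreted inhibitor of BMP and Wnt signals, had 0.876, 0.66 and 1.42 CPM in the IP and 43.7, 27.3 and 44.5 CPM in the input (log2 change -5.28 ± 0.53, adjusted p = 5.29e-08). None of these 3 genes had an IP library near the input range. Cxcr4, a chemokine receptor, had 0.717, 0.485 and 0.315 CPM in the IP and 26.4, 13.8 and 14.4 CPM in the input (log2 change -5.19 ± 0.54, adjusted p = 8.89e-08).

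Nuclear long non-coding RNAs were lower in the IP, as were 19.4% of all genes tested. Of 7 tested, out of 12 listed, 6 were lower, with a median log2 change of -1.82, and their sum was 303 to 413 CPM in the IP and 833 to 1327 CPM in the input. Neat1, the RNA scaffold of nuclear paraspeckles (chromosome 19, 5824708 to 5845478), had 29.3, 21.0 and 24.0 CPM in the IP, against 137, 90.6 and 117 CPM in the input (log2 change -2.21 ± 0.26, adjusted p = 5.45e-07). Meg3, an imprinted non-coding RNA abundant in neurons, had 62.1, 50.4 and 57.8 CPM in the IP and 286, 183 and 291 CPM in the input (log2 change -2.16 ± 0.33, adjusted p = 1.44e-05). Neither gene had overlapping libraries. Tug1 did not pass, at 26.3, 50.0 and 42.6 CPM in the IP and 31.4, 36.6 and 38.5 CPM in the input (log2 change 0.16 ± 0.20, adjusted p = 0.63). Host genes whose introns give rise to small nucleolar RNAs were also lower, in 6 of the 6 tested out of 13 listed, with a median of -1.24. Their spliced transcripts are exported, bound by ribosomes and degraded by nonsense-mediated decay, and they belong to the same growth-linked class of transcripts as ribosomal protein genes. Gas5 had 103, 38.5 and 52.2 CPM in the IP and 191, 145 and 138 CPM in the input (log2 change -1.30 ± 0.54, adjusted p = 0.0807). Snhg8 had 12.7, 4.25 and 6.41 CPM in the IP and 33.5, 19.0 and 22.4 CPM in the input (log2 change -1.69 ± 0.60, adjusted p = 0.0423). Without replicate 1 both lists had 6 genes lower, and IP replicate 1 was the highest IP library in the summed host genes.

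Ribosomal protein genes were lower in the IP by smaller amounts, beside the 19.4% of all genes tested that were lower. Of 80 listed genes of cytosolic ribosomal proteins, 39 were tested, 25 of these were lower and 0 higher, and the median log2 change was -0.64. Most of the others, 31 genes, were listed in the input table only, and 4 in the IP table only, so their change could not be computed. Rplp0, a protein of the ribosomal stalk (chromosome 5, 115559467 to 115563727), had 240.1, 169 and 196 CPM in the IP, against 458, 425 and 403 CPM in the input (log2 change -1.09 ± 0.13, adjusted p = 4.8e-07). Rps19, a small-subunit protein, had 55.9, 25.3 and 32.4 CPM in the IP and 103, 93.1 and 91.8 CPM in the input (log2 change -1.34 ± 0.29, adjusted p = 0.000938). IP replicate 1 was the highest of its group for Rplp0 and still below the lowest input library. These genes have many near-identical processed pseudogenes and only uniquely mapped reads were counted, so single members are uncertain. Among translation factors, 22 of 41 were tested, 8 were higher and 2 lower, with a median of 0.13. Over all genes tested 12.8% were higher and 19.4% lower, so the share of translation factors lower was below that over all genes. The 2 lower ones were Eef1a1, elongation factor 1 alpha, at 1312, 1120.1 and 1151 CPM in the IP and 1812, 1864 and 1757 CPM in the input (log2 change -0.60 ± 0.10, adjusted p = 4.97e-05), and Pabpc1, the poly(A)-binding protein, with a log2 change of -0.55 ± 0.15, adjusted p = 0.00893. Eif4g1, the scaffold of cap-dependent initiation, was higher, at 365, 436 and 355 CPM in the IP and 241, 273 and 211 CPM in the input (log2 change 0.67 ± 0.13, adjusted p = 0.000372). The block gave 33 lower ribosomal protein genes, and without replicate 1 there were 28. The translation factors had 9 higher and 4 lower with the block and 4 higher and 4 lower without replicate 1.

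Immediate early genes split, and their counts stand beside the 19.4% of all genes tested that were lower. Of 16 tested, out of 20 listed, 9 were lower in the IP and 0 higher, with a median log2 change of -0.88. Egr1, an immediate early zinc finger transcription factor, had 6.11, 4.04 and 3.58 CPM in the IP, against 27.6, 17.0 and 15.0 CPM in the input (log2 change -2.12 ± 0.26, adjusted p = 8.33e-07). Klf2 and Klf4, transcription factors known from endothelium among other cells, had log2 changes of -3.67 ± 0.58, adjusted p = 2.73e-05 and -3.67 ± 0.39, adjusted p = 1.05e-07. Nr4a1, an orphan nuclear receptor, had 2.73, 2.66 and 2.14 CPM in the IP and 31.5, 27.8 and 28.1 CPM in the input (log2 change -3.54 ± 0.35, adjusted p = 4.31e-08). Fos had 7.11, 3.61 and 2.07 CPM in the IP and 12.4, 5.21 and 4.33 CPM in the input, with overlap (log2 change -0.79 ± 0.35, adjusted p = 0.11). Jun, which injured neurons induce, had 182, 123 and 115 CPM in the IP and 155, 107 and 104 CPM in the input (log2 change 0.20 ± 0.21, adjusted p = 0.557), and Atf3, the best known injury-induced transcription factor of these neurons, had 61.6, 19.4 and 12.8 CPM in the IP and 56.7, 19.5 and 12.8 CPM in the input (log2 change 0.07 ± 0.60, adjusted p = 0.953). The genes that fell include several that glia and vessels make, and from which cells their input RNA came was not tested.

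Genes of energy metabolism and protein turnover changed little, and their counts have to be read against the 12.8% of all genes that were higher. Of 15 glycolysis genes tested, out of 17 listed, 5 were higher in the IP and 0 lower, with a median log2 change of 0.33. All 3 phosphofructokinase genes were among them, and Pfkp, the platelet-type isoform, had 468, 631 and 549.6 CPM in the IP and 354, 425 and 362 CPM in the input (log2 change 0.53 ± 0.20, adjusted p = 0.0483). Gapdh had 1.86, 2.95 and 2.97 CPM in the IP and 2.08, 3.02 and 3.15 CPM in the input and did not pass (-0.08 ± 0.31, adjusted p = 0.89), with many pseudogenes that make its count uncertain. Of 25 proteasome genes tested, out of 31 listed, 5 were higher and 0 lower, with a median of 0.28. Psmd11, a subunit of the regulatory lid, had 56.2, 66.7 and 64.1 CPM in the IP and 41.8, 44.9 and 45.3 CPM in the input (log2 change 0.50 ± 0.18, adjusted p = 0.0455). Nuclear genes of oxidative phosphorylation stayed near 0, with 5 of 60 tested (75 listed) higher, 1 lower and a median of 0.06. Atp5a1, a catalytic-core subunit of ATP synthase, was higher (0.40 ± 0.12, adjusted p = 0.0139), and Cox8a, a small subunit of cytochrome c oxidase, was lower (-0.38 ± 0.16, adjusted p = 0.0821). Without replicate 1 the direction of this list's calls turned, with 2 higher and 5 lower, and its summed level was 25337, 17622 and 19145 CPM in IP replicates 1, 2 and 3. Without replicate 1 of both fractions 4 glycolysis and 2 proteasome genes were higher, and with the block 9 and 11.

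The potassium channel list, which does not hold the satellite glia gene Kcnj10 described above, included 1 strong fall. Of 35 tested, out of 41 listed, 4 were higher and 1 lower in the IP, while 12.8% of all genes tested were higher and 19.4% lower, so the share higher was near that over all genes here and in the TRP and P2X list that follows. The lower one was Kcnn4, a calcium-activated channel known from immune and other non-neuronal cells, at 1.59, 1.01 and 1.42 CPM in the IP and 18.2, 19.7 and 20.6 CPM in the input (log2 change -3.87 ± 0.34, adjusted p = 1.38e-08). Its relative Kcnn1, the small-conductance channel of neurons, was higher, at 82.7, 101 and 106 CPM in the IP and 56.1, 62.8 and 71.9 CPM in the input (log2 change 0.60 ± 0.22, adjusted p = 0.0482). Of 16 TRP, P2X and related channel genes tested, out of 23 listed, 2 were higher, among them Trpm2, with a log2 change of 0.36 ± 0.14, adjusted p = 0.0568. Among 20 genes of neuropeptides and their processing tested, out of 25 listed, the granin gene Scg2 and the prohormone convertase gene Pcsk2 were higher, with 0.43 ± 0.19, adjusted p = 0.0947 and 0.31 ± 0.13, adjusted p = 0.079. Without replicate 1 of both fractions 3 potassium channel genes, 1 TRP and P2X gene and 1 neuropeptide gene were higher, and with the block 12, 6 and 4. The potassium channel genes lower were 1 without replicate 1 and 2 with the block.

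**Figure D2:**
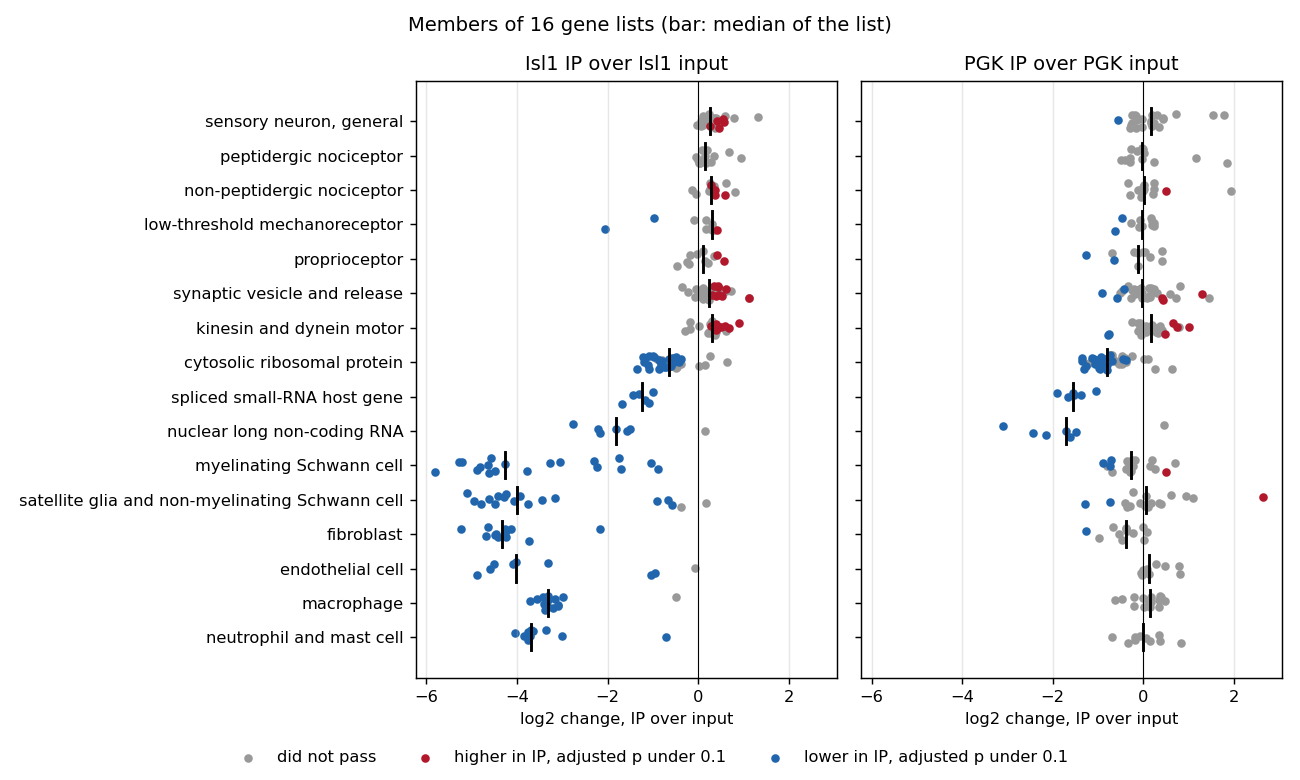
Log2 change of IP over input for each tested member of 16 gene lists, in the Isl1 line at the left and the PGK line at the right, with a bar at the list median; red points were called higher in the IP, blue points lower and grey points did not pass. Glial, vascular, fibroblast and immune lists sit near -4 in the Isl1 line and near 0 in the PGK line, while non-coding RNAs, host genes and ribosomal protein genes sit below 0 in both.

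The PGK pull-down, in which all cells are tagged, is the same procedure applied to ganglia in which the tag is not restricted to neurons. PGK IP and PGK input differed in 1955 of 10275 genes (19%), 915 higher (8.91%) and 1040 lower (10.1%). The IP-to-input log2 change differed between the lines in 1435 genes (14%) by the interaction test, being more positive in Isl1 for 158 (1.54%) and more negative for 1277 (12.4%). The cell lists with strong falls in Isl1 contributed to these. The change was more negative in Isl1 for 18 of 19 myelinating Schwann cell genes, 15 of 18 satellite glia genes, 12 of 12 fibroblast genes, 14 of 15 macrophage genes, 9 of 10 granulocyte and mast cell genes and 7 of 9 endothelial genes. Prx had 112, 144 and 79.4 CPM in the PGK IP, against 102, 102 and 76.5 CPM in the PGK input, a log2 change of 0.26 ± 0.40, adjusted p = 0.711, and the difference between the lines was -4.04 ± 0.59, adjusted p = 1.88e-05. Apoe had 7023, 6182 and 5389.7 CPM in the PGK IP and 3580.1, 2556 and 3495 CPM in the PGK input, and the difference between the lines was -5.89 ± 0.83, adjusted p = 1.29e-05. Ntrk2 had 135, 115 and 122 CPM in the PGK IP and 112, 105 and 101 CPM in the PGK input, and here too the lines differed (-2.28 ± 0.33, adjusted p = 1.59e-05). Pmp22 was the Schwann cell gene that did not differ by the test. It had 1105, 909 and 1041 CPM in the PGK IP and 1642, 1968 and 1497 CPM in the PGK input, a log2 change of -0.74 ± 0.12, adjusted p = 0.000479, and the difference between the lines was -0.15 ± 0.17, adjusted p = 0.744. With the block the lines differed in 2011 genes, 467 more positive and 1544 more negative in Isl1, and without replicate 1 of the Isl1 line in 1303, 112 and 1191. PGK IP replicate 2 stood apart, with the ribosomal RNA precursor Rn45s at 4.90% of its counts, against 1.04 and 1.20% in the other two. Without replicate 2 of both PGK fractions, PGK IP and PGK input differed in 1196 genes, 437 higher and 759 lower, and the lines in 1342, 148 and 1194. The granulocyte and mast cell list then had 5 members with a more negative change in Isl1 in place of 9, and the Schwann cell and satellite glia counts were 18 and 15 as before.

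Non-coding and ribosomal protein genes behaved otherwise. For nuclear long non-coding RNAs, 6 of 7 were lower in the PGK IP as well, with a median of -1.72, and 0 differed between the lines. Neat1 had 26.9, 30.5 and 28.0 CPM in the PGK IP and 99.7, 106 and 75.3 CPM in the PGK input (log2 change -1.72 ± 0.26, adjusted p = 0.000205). All 6 host genes were lower in the PGK IP, with a median of -1.55, and 0 differed between the lines. Of 39 ribosomal protein genes 24 were lower in the PGK IP, with a median of -0.80, and 0 differed between the lines. For Rplp0 the difference between the lines was -0.01 ± 0.18. Missing the threshold does not show that these genes behaved alike in both lines. Of 16 immediate early genes, 0 differed between PGK IP and PGK input and 7 had a more negative change in Isl1, Egr1 among them (-1.55 ± 0.35, adjusted p = 0.00282).

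For neuronal genes the interaction found few differences. Of the 24 motor genes and 31 synaptic genes tested, 1 and 0 had a more positive change in Isl1 than in PGK. Of 23 general sensory neuron genes 1 had a more positive change in Isl1, namely Thy1, a surface glycoprotein of neurons. It had 1737, 1549 and 1546 CPM in the Isl1 IP, against 1621, 1674 and 1598 CPM in the Isl1 input, and 1235, 1206 and 1134 CPM in the PGK IP, against 1804, 1873 and 1628 CPM in the PGK input. The libraries of the Isl1 fractions overlapped while every PGK IP library was below the PGK input (difference 0.55 ± 0.17, adjusted p = 0.0315). Without replicate 2 of the PGK line the difference for Thy1 no longer passed (adjusted p = 0.110), nor without replicate 1 of the Isl1 line (adjusted p = 0.142). Pcp4, a small calmodulin regulator, had the largest positive difference by the naming rule. It had 541, 463 and 560.3 CPM in the Isl1 IP and 587, 721 and 658 CPM in the Isl1 input, with 249, 296 and 319 CPM in the PGK IP and 626, 783 and 736 CPM in the PGK input. Both lines were lower in the IP, PGK by more, and the Isl1 change alone did not pass (-0.33 ± 0.17, adjusted p = 0.16). Calb1, the calcium-binding protein calbindin, had 98.4, 128 and 119.8 CPM in the Isl1 IP and 79.8, 110.1 and 92.3 CPM in the Isl1 input, with 64.4, 66.7 and 78.7 CPM in the PGK IP and 78.6, 104 and 108 CPM in the PGK input (difference 0.77 ± 0.24, adjusted p = 0.0404). Calb1 did not pass without replicate 2 of the PGK line either (adjusted p = 0.165), while Pcp4 did (adjusted p = 0.0266). Of the genes higher in the Isl1 IP, 541 were also higher in the PGK IP, which is 41.2% of the Isl1 list and 59.1% of the PGK list. By the interaction test 1287 of the genes higher in the Isl1 IP (98.1%) were not called, and 25 had a more positive change in Isl1. Of the genes lower in the Isl1 IP, 358 were also lower in the PGK IP, which is 18.0% and 34.4%. Calls in opposite directions were found in 79 genes lower in the Isl1 IP and higher in the PGK IP, and in 2 genes higher in the Isl1 IP and lower in the PGK IP.

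The Adv pull-down comes from the other driver labelled for sensory neurons. Adv IP and Adv input differed in 4887 genes (47.6%), 2262 higher (22%) and 2625 lower (25.5%). Of the genes called in Isl1, 1140 were also higher in the Adv IP (86.9% of the Isl1 list and 50.4% of the Adv list) and 1886 were also lower (94.8% and 71.8%), and 0 were called in opposite directions. The interaction test called 0 of 10275 genes, with 384 at an unadjusted p under 0.05 and 1 called by DESeq2. Prx had 10.2, 30.7 and 7.23 CPM in the Adv IP, against 132, 95.1 and 78.0 CPM in the Adv input, where Adv IP replicate 2 held far more Prx than the other 2 Adv IP libraries and Rn45s took 6.60% of the counts, against 1.47 and 2.82%. Without replicate 2 of both Adv fractions, Adv IP and Adv input differed in 3959 genes, 1613 higher and 2346 lower, and the interaction again called 0. The difference between the lines for Prx was -1.10 ± 0.58, adjusted p = 1 with all libraries, and -0.18 (adjusted p = 1.00) without replicate 2 of both Adv fractions. Strain and the number of tagged Rpl22 alleles also differ between these lines and cannot be told apart from the driver.

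The naive libraries of the time course gave a measurement of the same fractions in other libraries. There 5913 of 11312 genes tested differed between IP and input (52.3%), 2945 higher (26%) and 2968 lower (26.2%). Of the 1989 genes lower in the first set, 1130 were tested in the time-course set, and 97.9% of these had the same sign and 1017 (90%) were called lower. Those 1130 had a median log2 change of -0.80 in the first set, against -1.31 for all 1989, so these shares cover milder falls more than strong ones. Of the 12 fibroblast and 15 macrophage genes tested in the first set, 5 and 7 were tested in the time-course set. Of the 1312 genes higher in the first set, 1280 were tested in the time-course set, 80.7% had the same sign, 701 (54.8%) were called higher and 64 were called lower. In the other direction, the 1017 were 40.8% of the lower calls of the time-course set and the 701 were 29.0% of its higher calls among genes tested in both. Prx had 6.63, 5.51 and 4.95 CPM in the time-course IP, against 126, 129 and 154 CPM in the time-course input (log2 change -4.58 ± 0.36, adjusted p = 1.52e-08). Ntrk2 had 134, 128 and 148 CPM in the time-course IP and 282, 264 and 303 CPM in the time-course input (log2 change -1.05 ± 0.12, adjusted p = 1.39e-06), against -2.05 in the first set. General sensory neuron genes were called more often, with 17 of 23 higher and 1 lower, the sodium channel gene Scn9a (-0.28 ± 0.11, adjusted p = 0.0432). Tubb3 was among those higher, with 3752, 3661 and 3727 CPM in the time-course IP and 2807, 2406 and 2531 CPM in the time-course input (log2 change 0.52 ± 0.07, adjusted p = 1.69e-05). Proteasome genes were higher for 24 members and oxidative phosphorylation genes for 34 with 0 lower. Ribosomal protein genes were lower for 33 members and higher for 2. Single rises were less stable. Rims3, a release-site scaffold, had a log2 change of 0.89 in the first set and 0.01 ± 0.17, adjusted p = 0.965 in the time-course set, and Hmbox1, a homeobox gene, had 0.82 and -0.57 ± 0.25, adjusted p = 0.0793, which is a call in the opposite direction. The sets differ in the ganglia taken and were fitted and scaled apart, and the difference between them was not tested.

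**Figure D3:**
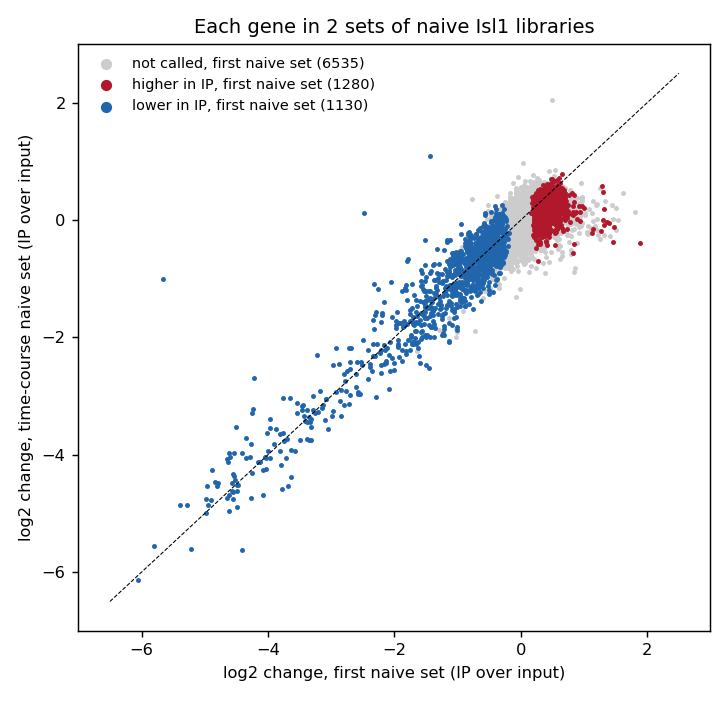
Log2 change of IP over input for 8945 genes tested in both sets, with the first naive set on the horizontal axis, the time-course naive set on the vertical axis and a dashed line of equality; 1280 genes called higher in the first set are red, 1130 called lower are blue and 6535 others are grey. Genes with strong falls lie along the line, while genes with rises form a cloud at small values, 80.7% of them positive in the time-course set. Pearson's r was 0.888 and Spearman's rho was 0.641 across genes, which are not independent replicates.

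The supernatant shows what remained after the pull-down. It differed from the input in 48 of 10437 genes (0.46%), 39 higher (0.374%) and 9 lower (0.0862%), with 1002 at an unadjusted p under 0.05. Supernatant and IP are compared with the same input libraries, so their changes are not independent. The largest differences by the naming rule were Matn4, Podxl, Sema3b, Evc and Bcan among genes higher in the supernatant and Nppb, Lxn, Trappc2, Spryd7 and Prrt2 among genes lower. Sema3b, a secreted semaphorin, had 160.1, 151 and 153 CPM in the supernatant, against 94.0, 80.5 and 90.9 CPM in the input (log2 change 0.81 ± 0.13, adjusted p = 0.0129), without overlap. Nppb, a neuropeptide of itch-sensing neurons, had 16.6, 14.6 and 13.5 CPM in the supernatant and 33.6, 30.4 and 27.6 CPM in the input (log2 change -1.04 ± 0.19, adjusted p = 0.0177), again without overlap. Ntrk2 had 159.6, 179 and 173 CPM in the supernatant and 117, 107 and 127 CPM in the input (log2 change 0.54 ± 0.10, adjusted p = 0.0177). Replicate numbers were taken to pair these libraries too, and the block gave 1256 called genes, 758 higher and 498 lower. Without replicate 1 of both fractions 0 genes were called. The list counts with the block stand beside 758 higher and 498 lower of all 10437 genes tested. With it, 10 of 19 Schwann cell genes tested, 8 of 17 satellite glia genes, 7 of 13 fibroblast genes and 5 of 15 macrophage genes were higher in the supernatant and 0 were lower. In the other direction 3 of 23 general sensory neuron genes tested, 5 of 20 neuropeptide genes and 5 of 31 synaptic genes were lower and 0 higher. So were 6 of 31 proteasome genes listed and 10 of 75 oxidative phosphorylation genes listed, again with 0 higher. These counts rest on the block, as without it 1 Schwann cell gene was higher, 1 neuropeptide gene was lower and the other lists named here had 0 calls.

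Summed list levels place the 3 fractions side by side, with each supernatant sum taken over the input mean of the supernatant fit, which was scaled apart. As a percentage of the input mean, general sensory neuron genes were at 135, 127 and 124% in the IP libraries and 92.9, 93.4 and 89.6% in the supernatant libraries. Myelinating Schwann cell genes were at 20.3, 22.0 and 23.0% in the IP and 137, 119 and 113% in the supernatant. Satellite glia genes were at 27.2, 31.7 and 29.8% in the IP and 137, 143 and 128% in the supernatant. In both glial lists every supernatant library was above the input mean and every IP library far below it. Single libraries overlapped in the Schwann cell list, with sums of 6172 to 7479 CPM in the supernatant and 4877 to 6318 CPM in the input of that fit. They did not overlap in the satellite glia list, at 9423 to 10524 and 6995 to 7910 CPM. Fibroblast genes were at 5.04, 4.65 and 5.19% in the IP and 114, 130 and 116% in the supernatant. Macrophage genes were at 12.0, 6.44 and 14.4% in the IP and 155, 125 and 115% in the supernatant. Nuclear long non-coding RNAs were at 36.6, 26.9 and 30.3% in the IP and 123, 86.2 and 109% in the supernatant. Supernatant and input sums also overlapped in the macrophage list (618 to 833 and 454 to 639 CPM) and the non-coding RNA list. The general sensory neuron and fibroblast sums did not overlap between these fractions.

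**Figure D4:**
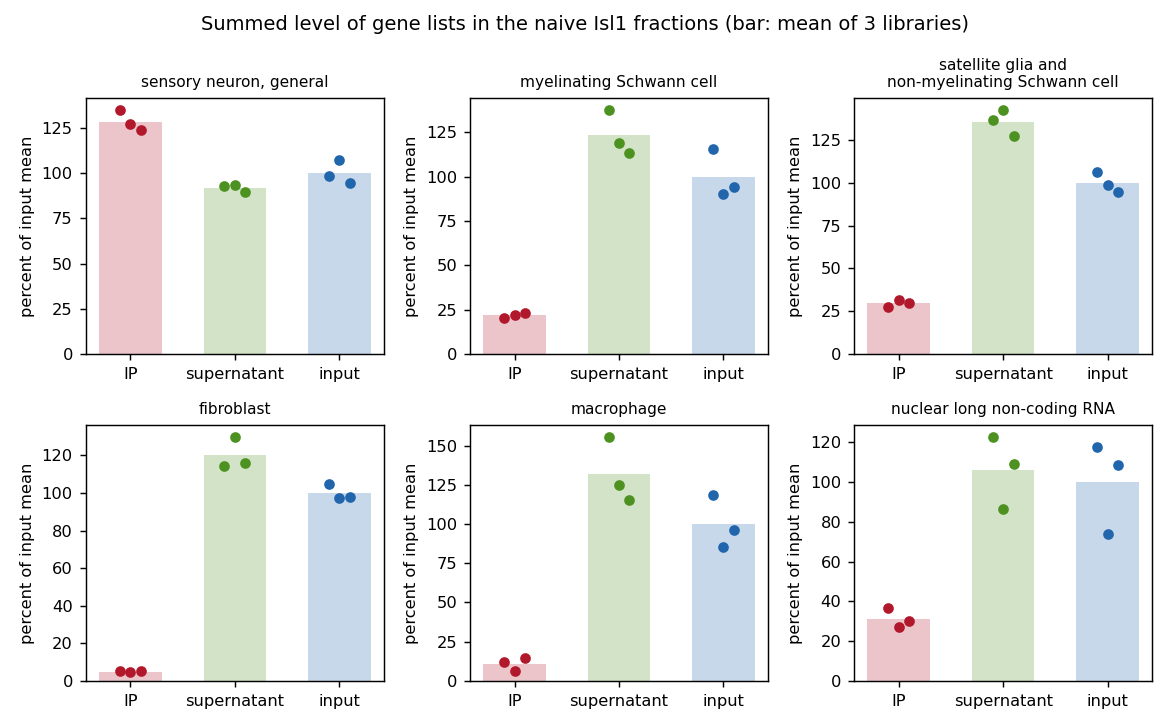
Summed CPM of 6 gene lists in the Isl1 IP, supernatant and input libraries as a percentage of the input mean, with points for the 3 libraries of a fraction and a bar at their mean. The supernatant is taken over the input mean of its own fit. In the IP fibroblast genes are at 4.65 to 5.19% and Schwann cell genes at 20.3 to 23.0% of the input, while the 6 lists lie between 86.2 and 155% in the supernatant.

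Transcript length went along with the IP-to-input change. By the length of the annotated transcript, the median log2 change in the Isl1 line was -0.23 for 682 genes under 1 kb, -0.01 for 1 to 2 kb, 0.03 for 2 to 3 kb, 0.10 for 3 to 4 kb, 0.11 for 4 to 6 kb, 0.12 for 6 to 8 kb and 0.11 for 403 genes of 8 kb and over. In the PGK line the medians ran from -0.37 in the shortest bin to 0.16 in the longest. In the time-course set they ran the other way from the 1 to 2 kb bin on, from 0.14 there to -0.25 in the longest. Genes called higher in the Isl1 IP had a median transcript length of 3902.5 bases and those called lower 2628 bases, against 2908 bases over all genes tested. The part of transcript length in the changes of the gene lists was not tested. Of genes called higher 99.8% were protein coding, of genes called lower 96.2%, and of all tested 97.8%.

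**Figure D5:**
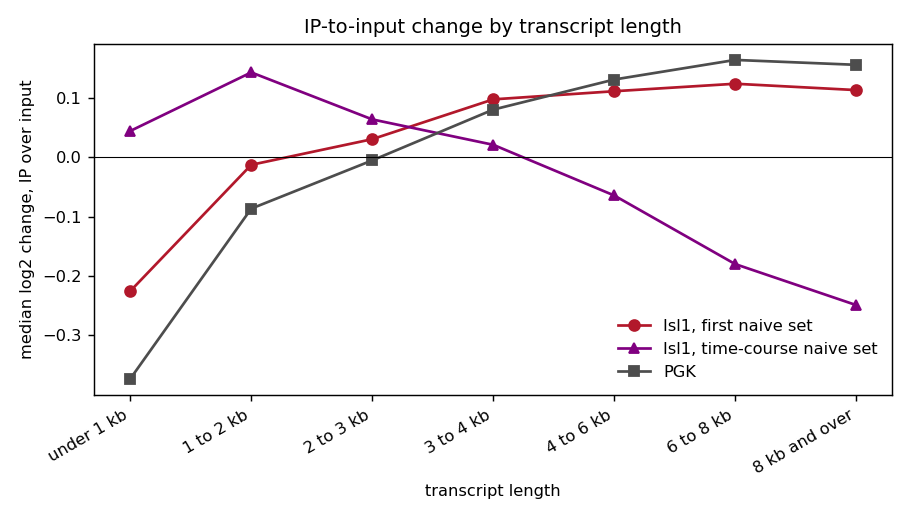
Median log2 change of IP over input by annotated transcript length for the first Isl1 set, the time-course Isl1 set and the PGK line, with 7 length bins from under 1 kb to 8 kb and over. The first Isl1 set and PGK are lowest in the shortest bin, at -0.23 and -0.37, and reach 0.11 and 0.16 in the longest, where the time-course set is at -0.25.

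Some abundant genes could not be compared because only 1 of the tables lists them. The input table alone listed 1272 genes, which took 5.12 to 5.18% of the counts of the input libraries and included the lysosomal gene Psap, the translation factors Eif4g2 and Eef2, and App, the amyloid precursor. The IP table alone listed 1116 genes, 2.93 to 2.99% of the counts of the IP libraries, including Gnas, the stimulatory G protein, Cpe, which processes peptide precursors, and the ribosomal protein gene Rpl4. Ribosomal protein genes were more often missing from the IP table, with 31 in the input table only and 4 in the IP table only. For translation factors these counts were 11 and 2. Why these genes are in 1 table only was not tested, and nothing about their change was computed.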

How the data were processed

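Libraries were made, per the study's methods, after removal of ribosomal RNA and amplification of the cDNA, and read from both ends on an Illumina sequencer. Reads were aligned to mm10 with STAR, and uniquely mapped fragments were counted per RefSeq gene with HTSeq. The submitters' notes name CASAVA 1.8.2, edgeR and the builds mm9 and mm10. None of the sources used here states the strand setting of the counting, so overlapping, antisense and near-identical genes are uncertain. The values used were the raw counts per gene that the authors deposited in tables by fraction, in 65 count columns, of which 0 were left unmatched to a sample. The authors' normalized columns were not used. Up to 22 symbols per table had been turned into dates and were looked up again by RefSeq accession. The ribosomal RNA precursor Rn45s took 0.791 to 2.24% of the counts of the Isl1 IP and input libraries.

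IP was compared with input on the genes both tables list, in R 4.3.3 with edgeR 4.0.16: TMM scaling, 1 coefficient per group, all naive IP and input libraries of the 5 lines in 1 fit, quasi-likelihood F tests, Benjamini-Hochberg adjustment and a false discovery rate under 0.1. Supernatant and time-course libraries had fits of their own. Genes entered at a mean FPKM above 1 over all libraries of a fit, with transcript lengths from the GENCODE M21 annotation of mm10. This filter can be passed through either fraction alone. The SE was taken as the size of the log2 change over the root of its F statistic. Differences between lines were interaction contrasts. The procedure was tested on simulated data with known changes. The simulated libraries were independent and had the same dispersion for all genes, so that test does not cover paired libraries or a replicate that stands apart. Tables and figures used python 3.11.15, pandas 2.3.3 and matplotlib 3.10.9.

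Replicate numbers were taken from the labels. Deviations from the group means correlated between same-numbered IP and input libraries at 0.717, 0.385 and 0.773 (time course 0.219, 0.32 and 0.568, supernatant and input 0.766, 0.547 and 0.776). IP replicate 2 correlated with input replicate 3 at 0.316, near its 0.385 with input replicate 2. The numbers were taken to pair the samples, which these values do not establish. Fits with the replicate number as a block were run beside those without it. The fits without a block were kept as the main ones because the study's methods name no block. Those methods name edgeR's negative binomial models, TMM scaling and an FPKM minimum. The quasi-likelihood test and the joint fit over lines were chosen here. The genes named were the tagged gene, the driver genes, list members, and the 15 largest rises and 15 largest falls (5 of each for other contrasts) among genes called, with at least 50 counts a library on average and no overlap between fractions (predicted genes, pseudogenes, small RNAs and olfactory receptors were left out). Some genes that this rule names are not reported here. The comparison and the gene lists were chosen with earlier results of these data known. Alternatives were RLE scaling, DESeq2 1.42.0, other FPKM filters, a stricter false discovery rate, only the groups compared, and leaving out each library, and, chosen after seeing the data, leaving out replicate 1 of both Isl1 fractions or replicate 2 of both PGK or both Adv fractions.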

Additional observations from a re-analysis of the deposited data

Results flagged for a closer look

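The results picked out here are those where the IP-to-input change of the Isl1 line differed from that of the PGK line by the interaction test. There were 1435 such genes, and in 1277 of them the Isl1 change was the more negative. The 5 largest positive differences by the naming rule were 0.98 for Pcp4, 0.85 for Chst9, 0.77 for Calb1, 0.75 for Calml4 and 0.74 for Fopnl. Calml4, a calmodulin-like gene, had 30.1, 19.3 and 23.1 CPM in the Isl1 IP and 25.1, 23.9 and 25.4 CPM in the Isl1 input, with 15.2, 22.0 and 17.0 CPM in the PGK IP and 29.7, 31.4 and 33.1 CPM in the PGK input. The Isl1 libraries overlapped while all PGK IP libraries were below the PGK input. Fopnl, a centrosomal gene, had 85.7, 58.0 and 67.1 CPM in the Isl1 IP and 87.4, 83.0 and 82.8 CPM in the Isl1 input, with 49.5, 62.6 and 56.8 CPM in the PGK IP and 104, 121 and 115 CPM in the PGK input. Chst9, a sulfotransferase gene, had log2 changes of 0.23 ± 0.21 in Isl1 and -0.63 ± 0.22 in PGK, and the difference had an adjusted p of 0.132 without replicate 2 of the PGK line. Without replicate 1 of the Isl1 line the adjusted p was 0.111 for Chst9, 0.176 for Calml4 and 0.169 for Fopnl.

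The 5 largest negative differences were -6.09 for Gpnmb, -6.06 for Rarres2, -5.90 for Lrg1, -5.89 for Apoe and -5.87 for Ptgds. Gpnmb, a glycoprotein of macrophages and other phagocytes, had 0.265, 0.155 and 0.216 CPM in the Isl1 IP and 10.1, 8.99 and 6.98 CPM in the Isl1 input, with 11.1, 12.2 and 8.59 CPM in the PGK IP and 7.79, 6.74 and 4.68 CPM in the PGK input. Ptgds, prostaglandin D synthase, had 5.15, 3.55 and 11.3 CPM in the Isl1 IP and 311, 227 and 791 CPM in the Isl1 input, with 140.3, 280.2 and 369.8 CPM in the PGK IP and 143, 182 and 574 CPM in the PGK input. Replicate 3 held the most Ptgds in each of these 4 groups. Lrg1, a secreted leucine-rich glycoprotein, had 0.159, 0.175 and 0.197 CPM in the Isl1 IP and 8.20, 8.48 and 2.60 CPM in the Isl1 input, and input replicate 3 was well below the other 2. All 5 kept an adjusted p below 0.1 without replicate 1 of the Isl1 line and without replicate 2 of the PGK line, at most 0.0193 and 0.0258.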

How the results depend on the processing

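With the replicate block 3282 of the 3301 genes called in the Isl1 line were called in the same direction. The count was 3607 with DESeq2, 3392 with RLE scaling, 3321 with the FPKM minimum set on the Isl1 input alone, 2785 with only the groups compared, 2679 at a false discovery rate under 0.05 (915 higher and 1764 lower) and 2555 to 3630 when 1 library was left out, the lowest without input replicate 1 and the highest without IP replicate 1. The genes higher in the IP carried most of that range, with 850 in place of 1312 without input replicate 1, 862 without IP replicate 2 and 873 without IP replicate 3, against 1705, 1822 and 1766 lower in place of 1989. Without the FPKM filter 14544 genes were tested and 5145 were called, 2209 higher and 2936 lower, since low-count genes enter. The difference between Isl1 and PGK had 2244 genes without that filter, 2011 with the block and 1291 to 1504 when 1 library was left out. Its 158 genes with a more positive change in Isl1 were 96 without Isl1 input replicate 3, 61 with only the groups compared, 252 without the FPKM filter and 340 with DESeq2. The difference between Isl1 and Adv had 0 genes under each setting except DESeq2, with 1. The time-course count was 7619 with the block and 4836 to 5681 with 1 library left out.

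The supernatant count of 48 depended on the setting. It was 238 with DESeq2 (145 higher and 93 lower), 47 with RLE scaling, 29 without the FPKM filter, 1 with only the groups compared, 1256 with the replicate block and 0 without replicate 1 of both fractions. Leaving out 1 library gave 0 to 32 genes, 0 without input replicate 2 and 32 without input replicate 3, and each of the 10 supernatant genes named by rule lost its call without input replicate 2. The cause of these shifts was not tested. Of the values of named genes under other settings 549 kept their side of the threshold, 87 no longer passed and 0 reversed.

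With 3 libraries a group and a replicate 1 that stands apart, the spread between libraries limits small changes such as those of neuronal genes, many of which are called only with the block. A gene of the input that passes the filter through glia is tested at its IP level however low that is. Libraries left out leave 2 in a group, whose spread is pooled with the other groups.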

Other observations

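Genes of sterol synthesis, a pathway that sensory neurons and myelinating glia both use, hardly separated the fractions. Over all genes tested 12.8% were higher and 19.4% lower, and neither this list nor the histone list that follows exceeded these shares in the main fit. Of 20 tested, out of 22 listed, 1 was higher in the IP, Mvk, mevalonate kinase, at 121, 104 and 112 CPM in the IP and 92.4, 97.6 and 90.9 CPM in the input (log2 change 0.26 ± 0.11, adjusted p = 0.0775), and without replicate 1 of both fractions it was not called (adjusted p = 0.342). Of 7 replication-type histone genes tested, out of 12 listed, 1 was lower, Hist2h2be, at 2.76, 2.33 and 2.26 CPM in the IP and 7.78, 8.11 and 6.25 CPM in the input (log2 change -1.59 ± 0.23, adjusted p = 9.72e-06), and without replicate 1 there were 2.

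Of 9 sodium channel genes tested, out of 12 listed, 1 was higher, the auxiliary subunit gene Scn4b, at 623, 736 and 786 CPM in the IP and 458, 539 and 613 CPM in the input (log2 change 0.41 ± 0.14, adjusted p = 0.035). Scn10a, the pore-forming subunit of a nociceptor sodium channel, had 523, 642 and 469 CPM in the IP and 605, 522 and 515 CPM in the input (log2 change -0.01 ± 0.13, adjusted p = 0.981). Of 10 calcium channel genes tested, out of 15 listed, 1 was higher, Cacna2d3, an alpha2delta subunit, at 89.6, 102 and 93.3 CPM in the IP and 68.8, 83.6 and 71.8 CPM in the input (log2 change 0.35 ± 0.10, adjusted p = 0.0155). As 12.8% of all genes tested were higher, the share called in each of these channel lists was near that over all genes. Genes of sympathetic neurons, which could enter with attached sympathetic tissue, gave 4 tested of 9 listed and 0 calls in either direction.

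Both genes that follow had log2 changes above 1 that did not pass the test, and in them replicate 1 differed from the other two. Dpysl3, a collapsin response mediator protein, had 13.6, 113 and 62.0 CPM in the IP and 14.8, 24.4 and 27.0 CPM in the input (log2 change 1.51 ± 0.68, adjusted p = 0.112). Prrxl1, a homeodomain transcription factor of nociceptors, had 8.39, 46.9 and 37.8 CPM in the IP and 6.65, 13.0 and 17.4 CPM in the input (log2 change 1.33 ± 0.70, adjusted p = 0.181). In each of them IP replicate 1 was within or near the input range and IP replicates 2 and 3 were above it, and in the PGK line the IP library of replicate 2 was the lowest of its group in the same genes, with Dpysl3 at 55.0, 9.20 and 45.8 CPM in the PGK IP and 12.4, 5.73 and 7.09 CPM in the PGK input. In the time-course set, which was scaled apart, Dpysl3 was at 853, 781 and 895 CPM in the IP and 697, 691 and 795 CPM in the input. These 2 genes were picked out after their values were seen. What sets these libraries apart was not tested.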
